A study of Mus musculus with 6 samples.

Results

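Transcripts of the receptors for glutamate and GABA, the main excitatory and inhibitory transmitters of cortex, were followed in adult mouse visual cortex after the loss of one eye. The genes were taken by symbol: AMPA (Gria), NMDA (Grin), kainate (Grik) and delta (Grid) subunits, metabotropic glutamate receptors (Grm), and GABA-A (Gabr) and GABA-B (Gabbr) subunits. In all, 24 of the 8251 genes named on the array matched, on 31 of 12422 probe sets, and each gene was read from its brightest probe set. RefSeq's mouse table (GRCm38.p6, used for names) holds 47 genes of this naming pattern. The remaining 23 are not analysed here, among them Grin1, Gabbr2 and every Grm gene but Grm8.

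All tissue came from wild-type C57Bl6 mice that lost one eye at postnatal day 100 and were killed 4 days later, at P104. The 3 deprived arrays hold visual cortex contralateral to the removed eye, and the 3 non-deprived arrays hold the ipsilateral hemisphere of enucleated mice, so neither group is intact cortex. The labels name 4 mice, and the design text says that samples were pooled. It does not say how, so the p-values reflect only how far these samples differ from each other, and that spread may be technical. The ipsilateral cortex also receives some input from the removed eye, since a minority of optic nerve fibres do not cross.

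AMPA receptors carry most fast excitation, NMDA receptors pass calcium when glutamate release and depolarisation coincide, and kainate and metabotropic receptors tune release and excitability. GABA-A receptors are chloride channels built of several subunits, whose makeup sets their kinetics, drug binding and place at or away from the synapse, while GABA-B receptors act through G proteins. In visual cortex the balance of NMDA receptor subunits and the maturation of inhibition are known to depend on visual experience during development.

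None of the receptor genes passed the test for a difference between deprived and non-deprived cortex. Of the 24 genes, 18 were bright enough to be tested, and 0 of these 18 were called at a limma adjusted p under 0.05 (smallest adjusted p = 0.949), where 0.174% of all 7453 tested probe sets were called, so a count of 0 does not set these genes apart. At an unadjusted p under 0.05 there was 1 receptor gene, Gabra2, where 5.09% of all probe sets passed. Gabra2 was also the 1 tested receptor gene (5.56% of 18) whose arrays did not overlap between groups, beside 10.1% of all tested probe sets. The median log2 change, deprived minus non-deprived on log2(signal + 16), was -0.03 over the 18 tested genes and -0.04 over all 24, beside 0.01 over all 5653 tested genes. The median size of the change, whatever its sign, was 0.10 over the 18 and 0.13 over all tested genes.

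Activity-dependent genes fell in the same arrays. Fos, an immediate-early transcription factor subunit, read 2837, 2784 and 3217 signal units in the non-deprived arrays and 758, 602 and 749 in the deprived ones, a 4.13-fold fall (95% interval of the log2 change -2.32 to -1.77, limma adjusted p = 0.00014). Egr1, Nr4a1 and Bdnf fell 2.19-fold, 2.47-fold and 1.92-fold (limma adjusted p = 0.00048, 0.00048 and 0.045). Earlier results of these data had shown these falls, and they serve here as a check of the labels. Among receptor genes, the 95% interval lay within a 2-fold change in either direction for 15 of the 18 tested, and within 1.5-fold for 9 of them: Gria1, Gria2, Gria3, Grid1, Grik5, Grin2c, Grm8, Gabrb1 and Gabbr1. The 3 tested receptor genes with an interval reaching beyond 2-fold were Grin2a, Grin2d and Gabra3. The fall of Bdnf, 1.92-fold, was itself under 2-fold, so a 2-fold bound alone does not exclude a change of that size. The activity genes were picked for known falls, so they are no unbiased yardstick for the receptor genes. With bulk tissue, fewer cells of a type and less RNA per cell cannot be told apart.

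**Figure D1:**
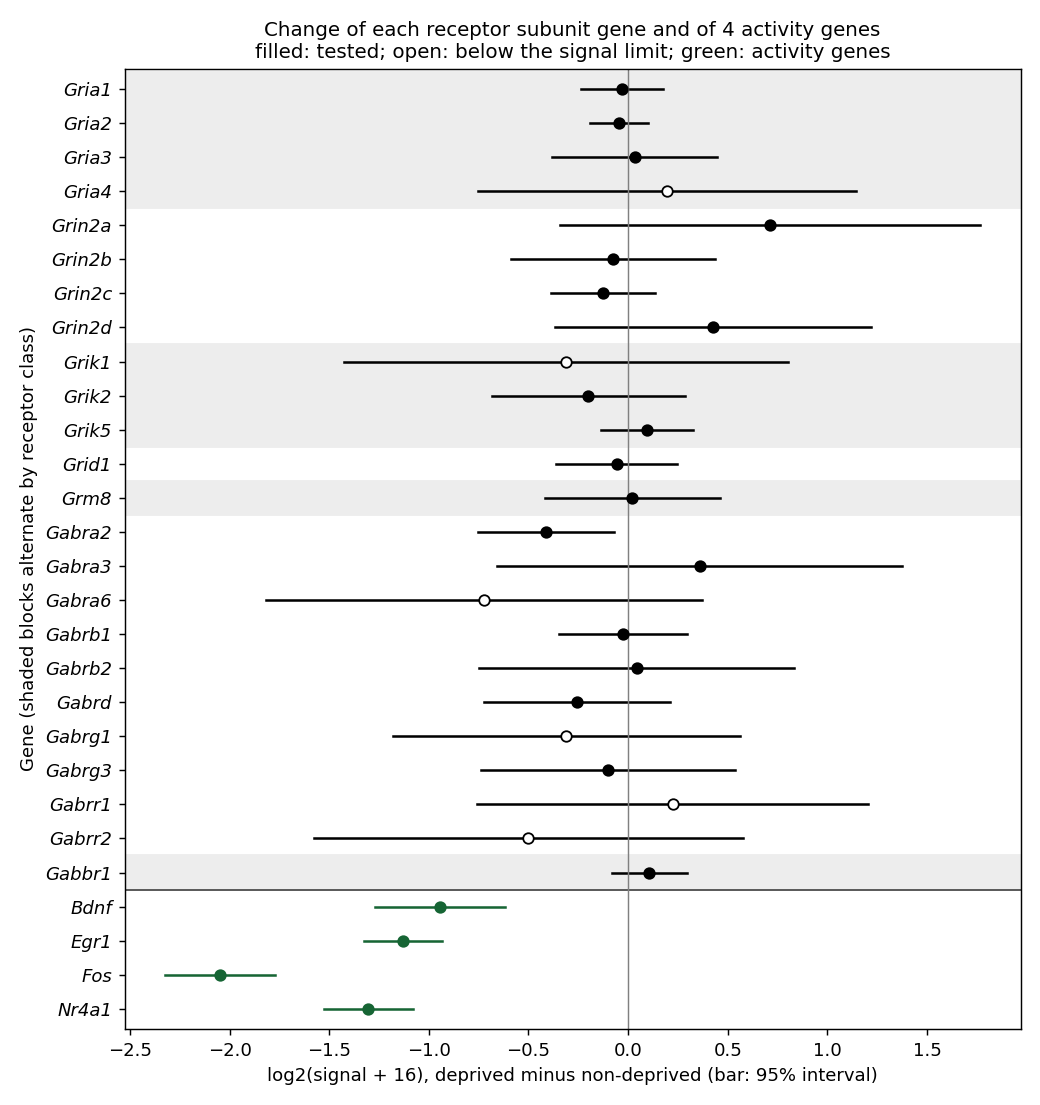
Change of each of the 24 receptor subunit genes, grouped by receptor class, and of 4 activity genes, as deprived minus non-deprived on log2(signal + 16) with limma's 95% interval (3 arrays per group). Open points are the 6 genes below the signal limit for testing. Gabra2 is the 1 receptor gene whose interval does not cross 0, at -0.41, while Fos lies at -2.05.

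Markers of cortical neurons were measured above the limit for testing, and so were most markers of other cell types and regions. All 5 measured general neuron markers, all 4 measured excitatory cortical markers (Camk2a, Neurod6, Neurod2 and Tbr1) and all 6 interneuron markers had a mean signal above that limit. So did 5 of 5 measured cerebellar, 3 of 3 striatal, 4 of 5 thalamic and 2 of 4 hippocampal markers, and all measured markers of astrocytes, oligodendrocytes and microglia, so these levels do not show that the tissue was cortex alone. By the fit, 0 of the markers of neurons, glia, vessels or neighbouring regions were called, beside 0.174% of all tested probe sets. A count of 0 therefore does not set these markers apart. Their summed signals overlapped between groups, except for 2 lists. The arrays of 10.1% of all tested probe sets did not overlap between groups. That share is for single probe sets, and none was worked out for sums. The interneuron list summed to 15584.5 to 15875.1 in non-deprived and 12296.6 to 13628.1 in deprived arrays. The 4 measured hippocampal markers, of which Prox1 and Lct were below the limit, summed to 1257 to 1493 and 1496 to 1955. A sum rests mostly on its brightest markers, among them Sst, Pvalb and Gad1 in the interneuron list. Sst was lower in every deprived array (log2 change -0.39, SE 0.08, limma adjusted p = 0.26). Pvalb (-0.25, SE 0.11), Gad1 (-0.13, SE 0.09) and the dim Gad2 (-0.14, SE 0.31) overlapped between groups. The median log2 change was -0.19 over the interneuron list and 0.01 over the hippocampal one.

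AMPA receptor genes ranged from the narrowest error among the receptor genes to one of the wider ones. Gria2, whose edited subunit makes AMPA receptors nearly impermeable to calcium, read 11711, 11657 and 12083 in the non-deprived arrays and 11276, 11969.9 and 11103 in the deprived ones. The groups overlapped, with deprived replicate 2 above non-deprived replicates 1 and 2. The log2 change was -0.05 (SE 0.07), and the interval ran from a fold of 0.875 to 1.07, the narrowest among the receptor genes. Gria1, whose subunit is inserted into synapses during potentiation, read 2483, 2713 and 2645 against 2422, 2505 and 2750.0 (log2 change -0.03, SE 0.09). Its highest and its lowest array were both deprived.

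Of the dimmer probe sets of both genes, 3 leaned the other way without passing. On a second Gria1 probe set the log2 change was 0.14 (SE 0.17). For Gria2 the values were 0.11 (SE 0.14) and, on an _f probe set that can share probes with related transcripts, 0.12 (SE 0.13). Another Gria2 probe set, an _r one with mean signals of 2.43 and 1.20, was below the limit for testing (-0.09, SE 0.18). Gria3 ranged from 581 to 649.9 in non-deprived and from 528 to 861 in deprived arrays (log2 change 0.03, SE 0.18), with deprived replicate 2 standing above the rest. Gria4 was below the limit for testing. It read 50.8, 157 and 76.4 in non-deprived and 102, 126.5 and 79.2 in deprived arrays (log2 change 0.20, SE 0.42). Within each array the log2 ratio of Gria1 to Gria2 averaged -2.17 ± 0.0682 (SD, n = 3) in non-deprived and -2.16 ± 0.13 in deprived cortex, a difference of 0.01 (two-sided exact permutation p = 0.9, adjusted over 2 pairs 0.9). The smallest p that 3 against 3 arrays allow is 0.1.

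Among NMDA receptor genes the largest difference in means rested on 1 array. Grin2a, which encodes the subunit that becomes prominent as cortex matures and speeds the receptor's decay, read 90.1, 122 and 83.4 in non-deprived and 91.0, 360.5 and 142 in deprived arrays. The high value was that of deprived replicate 2, and deprived replicate 1 lay among the non-deprived arrays. The log2 change was 0.71 (SE 0.47, interval -0.34 to 1.76), and 0.20 without deprived replicate 2. The mean signal of the non-deprived arrays, 98.4, lay under the limit of 134.7 that a gene's 6-array mean had to reach, and Grin2a was tested only because the deprived mean was higher.

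Grin2b, the subunit that dominates early in life, read 257, 398 and 298 against 321, 347 and 232 (log2 change -0.08, SE 0.23). Its groups overlapped over most of their range. The log2 ratio of Grin2a to Grin2b, whose balance shifts with visual experience in young cortex, was -1.36, -1.59 and -1.66 in the non-deprived arrays and -1.66, 0.05 and -0.65 in the deprived ones. The means differed by 0.79 (two-sided exact permutation p = 0.3, adjusted over 2 pairs 0.6), or by 0.39 without deprived replicate 2. Of 6 subunit pairs listed for this comparison, these 2 had both members measured.

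Grin2c, which encodes a subunit with weak magnesium block, gave the steadiest deprived readings of the group, at 834, 836 and 831, against 835, 924 and 979 in non-deprived arrays. Non-deprived replicate 1 lay inside the deprived range, and the log2 change was -0.12 (SE 0.12). Grin2d, a subunit of slowly decaying receptors, read 87.3, 195 and 223 against 279, 197 and 185. Its log2 change was 0.43 (SE 0.35), and 0.05 once non-deprived replicate 1, which read low, was left out.

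**Figure D2:**
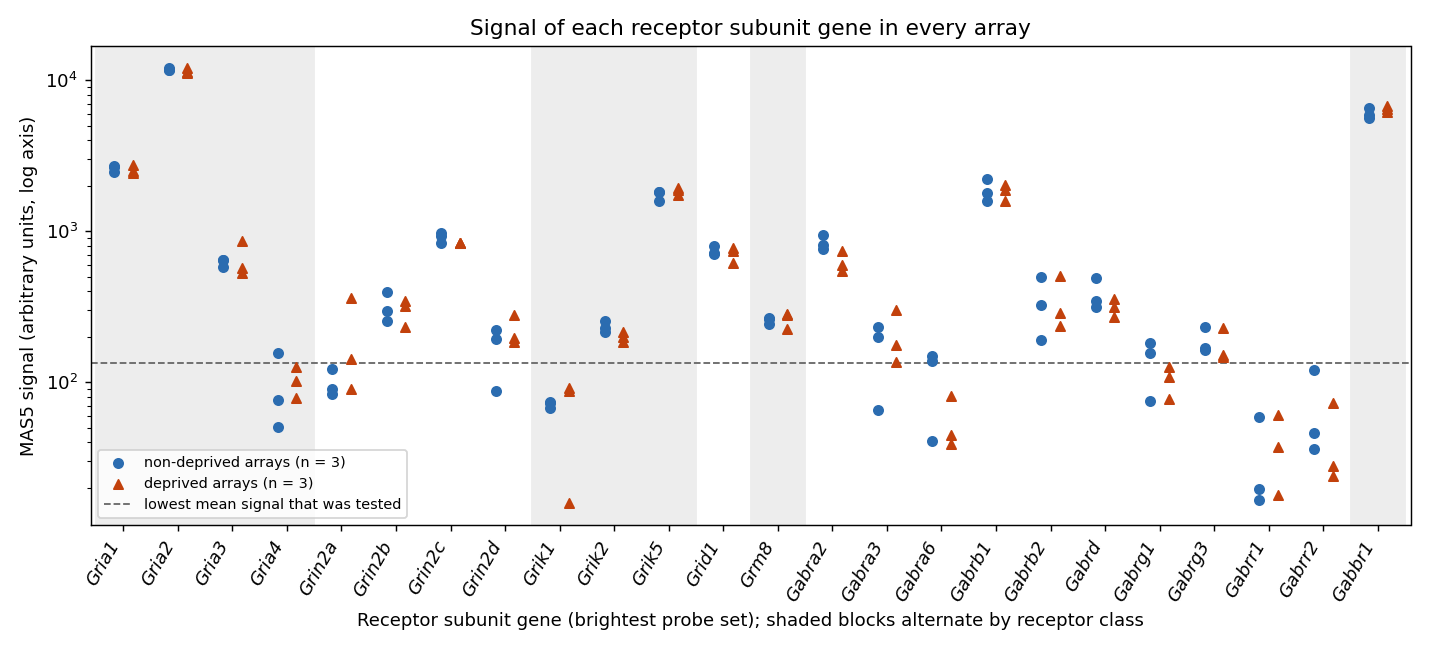
MAS5 signal of each receptor subunit gene in all 6 arrays on a log axis (circles, 3 non-deprived arrays; triangles, 3 deprived arrays); the dashed line marks the lowest mean signal that was tested, 134.7. Gabra2 is the 1 gene above that line whose groups do not overlap, and in Grin2a deprived replicate 2 stands alone at 360.5.

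Kainate and delta receptor genes varied little where they were bright. Grik5, whose high-affinity subunit needs a partner to form a channel, read 1825, 1826 and 1575 in non-deprived and 1749, 1882 and 1939 in deprived arrays (log2 change 0.09, SE 0.10). Its dimmer _r probe set gave 0.19 (SE 0.34). Grik2, which encodes a subunit that can form channels alone, read 229, 214 and 254 against 216, 199 and 186. The lowest non-deprived and the highest deprived array crossed by a narrow margin, and the log2 change was -0.20 (SE 0.22). On the dimmer Grik2 probe set the change was -0.21 (SE 0.32). Grik1 was below the limit for testing, at 67.7 to 74.4 in non-deprived arrays and 15.8, 92.4 and 87.1 in deprived ones. Grid1, a delta subunit that links presynaptic and postsynaptic membranes through cerebellins, read 715, 793 and 710.5 against 777, 745 and 617 (log2 change -0.06, SE 0.14).

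Grm8, which encodes a presynaptic receptor that lowers transmitter release, was the 1 metabotropic gene measured. It read 243, 268 and 261 in non-deprived and 283, 278 and 226 in deprived arrays. Deprived arrays held both the highest and the lowest value, and the log2 change was 0.02 (SE 0.20, interval -0.42 to 0.46).

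GABA-A receptor genes held the lowest unadjusted p. Gabra2, an alpha subunit common at synapses on the axon initial segment of pyramidal neurons, read 941, 758 and 805 in non-deprived arrays and 594, 736 and 546 in deprived ones. All deprived arrays lay below all non-deprived ones, with a gap between deprived replicate 2 and non-deprived replicate 2 that was small beside the spread within either group. The mean went from 835 ± 94.9 to 625 ± 99.1 (SD, n = 3), a log2 change of -0.41 (SE 0.15, interval -0.75 to -0.07). The difference did not pass adjustment over all tested probe sets (limma adjusted p = 0.949). Over 13 alternatives the log2 change ranged from -0.53 to -0.32 and the smallest adjusted p was 0.684. Some of these, such as the replicate block, can change only the p-value. The summed interneuron markers were also lower in every deprived array, as given above. The summed hippocampal ones were higher in every deprived array, though their median log2 change was 0.01. The part of either list in this value was not tested.

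Gabrd, the delta subunit of extrasynaptic receptors that carry tonic inhibition, read 489, 344 and 314 in non-deprived and 313.5, 271 and 355.5 in deprived arrays. The log2 change was -0.26 (SE 0.21), and -0.07 without non-deprived replicate 1, whose reading was the highest. Thalamus, which lies below the dissected cortex, also expresses this gene. The 5 measured thalamic markers summed to 2422 to 3396 in non-deprived and 2283 to 2771 in deprived arrays, and their part in the Gabrd value was not tested.

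The beta subunit genes, whose products help form the GABA binding site, did not lean to either side. Gabrb1 ranged from 1590 to 2220 in non-deprived and from 1574 to 2020 in deprived arrays (log2 change -0.03, SE 0.14). Gabrb2 ranged from 192 to 495 and from 234 to 505 (log2 change 0.04, SE 0.35), a wide spread within each group. Gabra3, another alpha subunit, read 66.0, 200.4 and 233 against 177, 300.2 and 136 (log2 change 0.36, SE 0.45), and turned to -0.14 without non-deprived replicate 1. Gabrg3 had a log2 change of -0.10 (SE 0.28).

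The other 4 GABA-A genes were below the limit for testing, and their signals are not shown to be above background. Gabra6, known for its restriction to cerebellar granule cells, read 149.9, 139 and 40.8 in non-deprived and 81.1, 44.9 and 38.9 in deprived arrays (log2 change -0.72, SE 0.48, limma adjusted p = 0.980 with no filter). On its second probe set the change was -0.11 (SE 0.27). Gabrr1 and Gabrr2, rho subunits best known from retina, had values of 0.22 (SE 0.43) and -0.50 (SE 0.48). Gabrg1 had -0.31 (SE 0.39). Over all 10 measured GABA-A genes 7 were lower on average in deprived cortex, and the median was -0.18; over the 6 tested ones the count was 4 and the median -0.06, and 0 were called.

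Gabbr1, the GABA-B subunit that binds GABA, read 6506, 5578 and 5879 in non-deprived and 6478, 6131 and 6716 in deprived arrays. The non-deprived arrays reached both below and into the deprived range. The mean went from 5987 ± 474 to 6442 ± 294 (SD, n = 3), a log2 change of 0.11 (SE 0.08) with an interval from a fold of 0.946 to 1.23.

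The standard errors followed the signal, and part of this link is built in. The limma fit used an intensity trend, which draws each gene's error toward that usual at its signal. For the 9 receptor genes with a mean signal of at least 500, the standard error of the log2 change lay between 0.07 and 0.18, and the changes between -0.41 and 0.11. The 15 genes with a mean under 500 had standard errors of 0.20 to 0.49 and changes of -0.72 to 0.71. The largest differences in means, those of Gabra6 and Grin2a, had standard errors of 0.48 and 0.47, and Grik1, with a smaller change of -0.31, had the largest error, 0.49.

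**Figure D3:**
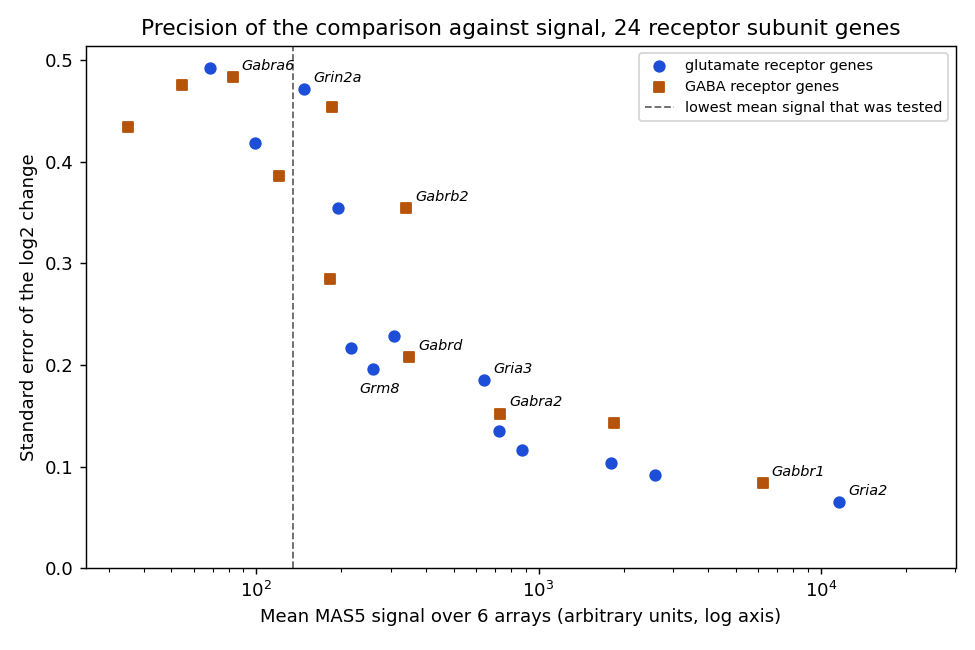
Standard error of the log2 change against mean MAS5 signal over 6 arrays (log axis) for the 24 receptor subunit genes (circles, glutamate receptors; squares, GABA receptors); the dashed line marks the lowest mean signal that was tested. The error is 0.43 in Gabrr1, the dimmest gene, highest at 0.49 in Grik1, and lowest at 0.07 in Gria2, the brightest. The limma fit draws each error toward that usual at its signal, so part of the slope is built in.

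Several GABA-A genes lie side by side in the mouse genome, which the choice of genes did not use. By gene order in RefSeq's table, Gabrg1 and Gabra2 are neighbours on chromosome 5, in the same cluster as Gabrb1. Their log2 changes were -0.31 (SE 0.39), -0.41 (SE 0.15) and -0.03 (SE 0.14). Gabra6 and Gabrb2 are neighbours on chromosome 11, with log2 changes of -0.72 (SE 0.48) and 0.04 (SE 0.35). Gabrr2 and Gabrr1 are neighbours on chromosome 4, and had changes of opposite sign, as given above.

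The promoters of the receptor genes were set beside that of Fos, the check gene with the largest fall. The 200 bases before the annotated start are shown 5′ to 3′ for Gabra2, the receptor gene whose groups did not overlap, for Gria2, the gene with the narrowest interval, and for Fos (RefSeq, GRCm38.p6). Capitals mark TGACG on either strand, the half-site of the cyclic AMP response element that CREB binds.
Gabra2, chr5:71095850-71096049, minus strand: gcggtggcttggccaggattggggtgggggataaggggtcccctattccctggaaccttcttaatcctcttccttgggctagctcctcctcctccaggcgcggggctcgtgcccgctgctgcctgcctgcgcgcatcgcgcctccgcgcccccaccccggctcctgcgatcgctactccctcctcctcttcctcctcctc
Gria2, chr3:80802836-80803035, minus strand: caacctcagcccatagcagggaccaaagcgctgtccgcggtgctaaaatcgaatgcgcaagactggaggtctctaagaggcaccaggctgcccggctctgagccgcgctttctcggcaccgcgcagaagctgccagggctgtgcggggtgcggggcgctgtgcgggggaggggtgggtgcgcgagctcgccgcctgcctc
Fos, chr12:85473690-85473889, plus strand: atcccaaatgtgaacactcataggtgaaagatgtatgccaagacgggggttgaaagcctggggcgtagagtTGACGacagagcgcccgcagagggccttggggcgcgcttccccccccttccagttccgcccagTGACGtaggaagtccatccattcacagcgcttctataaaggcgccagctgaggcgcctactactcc

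The Fos window holds 2 matches to TGACG, and the Gabra2 and Gria2 windows hold 0. Most promoters lack TGACG, as given below, so these 0 counts do not set Gabra2 and Gria2 apart. Promoters of the other check genes are not shown. The table has promoters for 17 of the 24 receptor genes, 23 promoters in all. TGACG stood in 2 of these 23 (8.70%), 1 each of Gabrr1 and Grm8, and in 15.7% of all 32851 promoters. The full element TGACGTCA, which contains the half-site, stood in 0 of the 23 and in 1.47% of all. The Egr binding sites GCGGGGGCG and GCGTGGGCG, searched on both strands, stood in 0 of the 23 and in 2.36% and 0.49% of all promoters. A match is a stretch of letters and not a shown binding site.

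Genes that anchor and move these receptors were counted in the same fit. Of 35 listed genes 19 were measured and 18 tested; 0 were lower and 0 higher at a limma adjusted p under 0.05 (0 also at an unadjusted p under 0.05), beside 0.174% and 5.09% of all tested probe sets, so these counts do not set the list apart. Their median log2 change was 0.05. The smallest p-values were those of Hap1, a motor adaptor for GABA-A receptor transport, with 1690 ± 267 and 2022 ± 103.8 (log2 change 0.27, SE 0.13), and of the scaffold gene Dlg1, with 2557 ± 205 and 2241 ± 98.3 (log2 change -0.19, SE 0.10). Gphn, which encodes the scaffold of inhibitory synapses, had -0.06 (SE 0.18), and Cacng2, an AMPA receptor auxiliary subunit, 0.05 (SE 0.14).

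Genes for supply and clearance of both transmitters were counted likewise. Of 18 listed genes 9 were measured, all 9 were tested, and 0 were called in either direction (0 also at an unadjusted p under 0.05), again near the 0.174% and 5.09% of all tested probe sets. Their median log2 change was 0.04. The glutamine transporter gene Slc38a2 read 470 ± 80.5 and 573 ± 29.9 (log2 change 0.29, SE 0.16). Gad1, which encodes the main GABA-synthesising enzyme, read 3395 ± 219 and 3093 ± 163 (log2 change -0.13, SE 0.09).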

How the data were processed

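Visual cortex RNA from 6 samples was made into biotinylated cRNA and hybridised to 6 single-colour arrays, per the labels' protocols. The authors deposited signal intensity on a linear scale for 12488 probe sets, made with MAS5 per the submitters' processing notes. All deposited intensity columns share a 2% trimmed mean of 500.3, so a change in total mRNA cannot be seen. Detection calls and scanner files were not used here, and the number of arrays limits the precision.

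The 66 control probe sets were set aside. The brightest 60% by 6-array mean, 7453 probe sets at 134.7 or more, were tested on log2(signal + 16) in R 4.3.3 with limma 3.58.1 (lmFit and eBayes, trend = TRUE). Tests were two-sided, with Benjamini-Hochberg adjustment over all of them. A pseudocount of 16 makes changes of low signals smaller. Values of genes below that limit come from the same fit on all 12422 probe sets. Names come from the platform annotation, by probe sets with 1 gene symbol (10833; 396 have several and 1193 are unnamed here).

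The members and lists were chosen with earlier results of these data known. Values in every array are given for genes past the threshold, for the 2 smallest p-values in each receptor class, for genes whose groups do not overlap, and for a chosen group of well-known subunits; of these, Grin1 and some others are not analysed here. Other probe sets are given where their change had the opposite sign or differed by over 0.5; those of Grik2 and Grik5 and the dimmest of Gria2, which met neither, were added for completeness. Gphn and Cacng2 were named after their values were seen. Alternatives were quantile normalization, a pseudocount of 1 or of 64, testing all probe sets or the brightest 40%, the replicate block, leaving out each array, no intensity trend, averaging the probe sets of a gene, and a threshold of 0.10. The fit was tested on simulated data.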

Additional observations from a re-analysis of the deposited data

How the results depend on the processing

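No receptor gene passed an adjusted p under 0.05, or under 0.10, in the fits run, and of 296 values of single genes under alternatives the smallest adjusted p was 0.684, for Gabra2. Direction turned in 21 of the 296 values, in 13 genes. The other filters, the replicate block and the fit with no intensity trend leave a log2 change as it was. Their values are among the 296 and could not turn. Averaging the probe sets of a gene turned Gria1 (0.056) and Gria2 (0.062) and moved the ionotropic median from -0.039 to 0.045. The other turns came from leaving out 1 array, with log2 changes from -0.14 to 0.66 for Gabra3, -0.14 to 0.10 for Gabrb1, -0.29 to 0.36 for Gabrb2, -0.29 to 0.052 for Gabrg3, -0.060 to 0.60 for Gabrr1, -0.084 to 0.0068 for Gria1, -0.18 to 0.17 for Gria3, -0.11 to 0.58 for Gria4, -0.12 to 0.041 for Grid1, -0.62 to 0.27 for Grik1, -0.21 to 0.090 for Grin2b and -0.034 to 0.12 for Grm8. The cause was not tested. Without 1 array, the median over tested receptor genes ran from -0.085 (without deprived replicate 2) to 0.051 (without deprived replicate 3), with the same range for ionotropic glutamate receptors, and from -0.21 to 0.03 for GABA-A genes. Calls over all probe sets, 13 in the fit reported, ran from 7 (without non-deprived replicate 2) to 10, with 8 when either non-deprived replicate 3 or deprived replicate 3 was left out; with no filter there were 9. With the replicate block there were 10, and 0 receptor genes were called. Deviations of same-numbered arrays from their group means correlated at 0.003, 0.049 and -0.02 across tested probe sets, so the numbers were not treated as pairs; whether such arrays share mice is not stated in the sources used here. Signals under the limit for testing are not shown to be above background, and the metabotropic value rests on Grm8 alone.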

Other observations

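Deprived replicate 3 held the lowest of the 6 readings for 9 of the 24 receptor genes, against 2 to 4 genes in each of the other 5 arrays. Gabra6, below the limit for testing, is among the 9, and the same count over all genes is not given here. The median signal over probe sets was 206.8 in deprived replicate 3 and 203.0 to 219.7 in the others. The highest reading lay in non-deprived replicate 3 for 6 genes and in deprived replicate 2 for 5. Of the transmitter supply and clearance genes, 0 of 9 tested had arrays that did not overlap between groups. Of the receptor anchoring genes, 4 of 18 tested had such arrays (22.2%, beside 10.1% of all tested probe sets). Hap1 and the postsynaptic scaffold gene Dlg4 were higher in every deprived array, while Dlg1 and Cbln1, whose product binds delta receptors, were lower in every deprived array. The log2 changes were 0.27 (SE 0.13), 0.18 (SE 0.10), -0.19 (SE 0.10) and -0.19 (SE 0.17), none past the threshold (limma adjusted p = 0.967 for each); Dlg4 and Cbln1 were named after their values were seen.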
